A study of Mus musculus with 24 samples.

Results

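Th1 and regulatory T (Treg) cells, both polarized in culture from mouse T cells, were compared by RNA sequencing. The comparison uses 12 of the 24 libraries of the series, 6 labelled Th1 and 6 labelled Treg, which were chosen by their labels and by no measured value. All cells were wild type (WT). Each set of 6 has a single vehicle (DMSO) library and 5 libraries that received a kappa opioid receptor (KOR) agonist each, with the codes WMS-83, WMS-76, WMS-75, WMS-64 and WMS-200, at 0.1 µM for up to 5 days. The labels call these agonists derivatives of perhydroquinoxaline. The remaining 12 libraries, from Th17 cells and activated CD8 T cells under the same treatments, entered the model that estimates the spread and are used below only to place single genes. The labels do not name the strain, age, sex or animal of a library, nor do they say whether libraries came from separate cultures, so the p-values measure the spread between these libraries, which may be technical. The column names also hold a number after WT whose meaning is not stated. It is 4 in every Th1 library, 3 in the Treg libraries with DMSO and WMS-200, and 2 in the other 4 Treg libraries, so that effects of this number and of the lineage cannot be told apart. One Th1 library, that with WMS-83, has a title that names Th17, while its other labels and its column name Th1. Total counts ran from 16933512 to 21946887 in Th1 libraries and from 15188284 to 18500457 in Treg libraries. The Treg libraries varied more among themselves than the Th1 libraries, with a chi-square per degree of freedom over genes of 4.73 to 9.61 between pairs of Th1 libraries and 8.93 to 48.7 between pairs of Treg libraries. The Treg libraries of number 3 stood apart from those of number 2 in many of the genes below, and values without them are given where they moved a result most.

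Th1 cells are CD4 helper cells that form under interleukin 12 and interferon gamma. Their lineage factor T-bet (Tbx21) drives the interferon gamma gene, and their cytokines activate macrophages and cytotoxic cells. Treg cells depend on the lineage factor FOXP3 and restrain other immune cells. In culture they are usually made with interleukin 2 and transforming growth factor beta (TGF-beta), and the surface enzymes CD39 (Entpd1) and CD73 (Nt5e), through which they turn ATP into adenosine, are among their known tools.

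The 4 marker transcripts went with the labels in all 12 libraries. Levels are given in CPM, the count of a gene per library total after TMM adjustment of that total, and differences are log2 fold changes of Th1 over Treg with their standard errors. Ifng, which encodes interferon gamma (ENSMUSG00000055170, chromosome 10, 118276951 to 118281797 as the file gives it), had 526 to 682 CPM (median 565) in Th1 libraries, against 0.0493 to 0.414 CPM (median 0.239) in Treg libraries. Il2, which encodes the T cell growth factor interleukin 2 (ENSMUSG00000027720, chromosome 3, 37174672 to 37180108), had 120.1 to 162 CPM (median 135) in Th1 libraries, against 1.06 to 2.97 CPM (median 2.24) in Treg libraries. The highest Treg library lay far below the lowest Th1 library for both genes, and the 6 Treg libraries together held only 32 counts of Ifng. Foxp3 (ENSMUSG00000039521, chromosome X, 7439883 to 7461484) had 5.83 to 10.8 CPM (median 6.199) in Th1 libraries, against 162 to 357 CPM (median 305) in Treg libraries. Nt5e (ENSMUSG00000032420, chromosome 9, 88209250 to 88254145) had 10.5 to 16.1 CPM (median 12.8) in Th1 libraries, against 491 to 619 CPM (median 599) in Treg libraries. Here every Treg library lay above every Th1 library. The difference was 11.13 ± 0.24 for Ifng (adjusted p = 2.18e-20), 5.99 ± 0.20 for Il2 (adjusted p = 5.31e-16), −5.27 ± 0.23 for Foxp3 (adjusted p = 1.82e-13) and −5.44 ± 0.10 for Nt5e (adjusted p = 6.84e-24), by edgeR's quasi-likelihood test adjusted over all genes. Foxp3 was not even among the Treg libraries. The DMSO and WMS-200 libraries, which carry number 3, had 162 and 208 CPM, and the 4 libraries of number 2 had 290.3 to 357 CPM. Without the number 3 libraries the Foxp3 difference was −5.56.

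**Figure D1:**
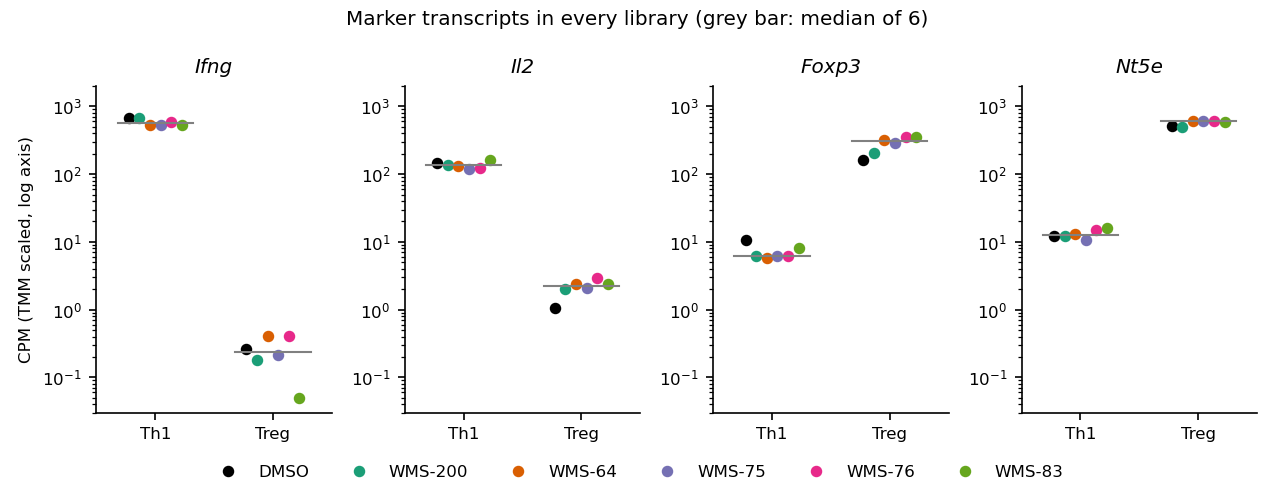
CPM of the 4 markers on a log axis, 1 point for each of the 6 Th1 (left) and 6 Treg (right) libraries of a gene, coloured by treatment, with the median as a grey bar. The Th1 libraries of Ifng and Il2 lie above all Treg libraries, and those of Foxp3 and Nt5e lie below all of them.

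The sequences just upstream of these 4 genes are shown because the report turns on them. They are the 250 bases before the start that RefSeq gives on GRCm38.p6, written 5′ to 3′ on the gene's strand. The gene positions above are on a build that is not stated and cannot be compared with those of these windows. The windows lie at chr10:118440796-118441045 (plus strand) for Ifng, chr3:37125955-37126204 (minus strand) for Il2, chrX:7579426-7579675 (plus strand) for Foxp3, of whose 2 starts in the table this is the upstream one, and chr9:88327359-88327608 (plus strand) for Nt5e. Capitals mark the TATA motif TATAAA, searched on the gene's strand, and GGAAAA, the core bound by NFAT, the calcium-dependent factor of activated T cells, searched on both strands and so also marked as TTTTCC.
Ifng: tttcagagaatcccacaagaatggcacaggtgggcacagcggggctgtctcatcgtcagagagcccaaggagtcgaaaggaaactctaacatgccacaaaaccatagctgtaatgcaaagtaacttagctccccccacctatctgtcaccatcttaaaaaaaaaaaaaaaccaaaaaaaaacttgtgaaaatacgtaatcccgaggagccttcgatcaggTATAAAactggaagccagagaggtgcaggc
Il2: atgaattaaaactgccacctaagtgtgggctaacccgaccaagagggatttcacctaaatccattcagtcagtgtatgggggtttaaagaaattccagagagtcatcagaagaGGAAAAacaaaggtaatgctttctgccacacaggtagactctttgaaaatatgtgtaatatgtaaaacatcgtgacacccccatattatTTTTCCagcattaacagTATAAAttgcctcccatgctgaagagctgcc
Foxp3: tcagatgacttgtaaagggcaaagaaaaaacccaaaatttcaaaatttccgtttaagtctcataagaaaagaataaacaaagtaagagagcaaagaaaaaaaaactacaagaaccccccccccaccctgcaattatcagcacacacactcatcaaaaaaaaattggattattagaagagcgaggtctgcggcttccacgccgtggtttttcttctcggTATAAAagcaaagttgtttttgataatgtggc
Nt5e: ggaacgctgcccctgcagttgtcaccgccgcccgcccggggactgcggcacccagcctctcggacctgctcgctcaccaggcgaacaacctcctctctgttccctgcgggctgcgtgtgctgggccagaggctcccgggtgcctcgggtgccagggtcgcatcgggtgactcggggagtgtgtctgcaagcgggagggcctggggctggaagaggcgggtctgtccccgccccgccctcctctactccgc
Ifng, Il2 and Foxp3 each held 1 TATAAA, which 7.59% of the 32851 windows of this length in the table hold. The Il2 window held 2 NFAT cores that overlap no other marked motif, and 20.4% of all windows hold at least 1. The AP-1 motif TGANTCA, searched on both strands, was in none of the 4 windows and in 6.75% of all. The dinucleotide CG occurred 6 times in the Ifng window, 2 times in the Il2 window, 6 times in the Foxp3 window and 21 times in the Nt5e window, against a median of 6. A match describes the window and not a site in use.

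The lineages differed across most of the transcriptome. Of 15885 genes tested, 12308 (77.5%) passed at an adjusted p under 0.05, 5933 (37.3%) higher and 6375 (40.1%) lower in Th1. A test against a 2-fold change was passed by 4659 genes (29.3%), 2337 (14.7%) higher and 2322 (14.6%) lower in Th1. In 9278 genes (58.4%) the 6 Th1 libraries did not overlap the 6 Treg libraries, all Th1 libraries being higher in 4768 (30%) and lower in 4510 (28.4%). The median log2 fold change of all genes tested was −0.09. Since most genes were called, counts over gene lists are read below against these shares and mainly by the 2-fold test. Within the 6 treatments, 4556 of the 4659 genes past 2-fold (97.8%) had the same sign of the Th1 over Treg ratio in all 6 pairs, as had 67.9% of all genes tested. The pairs were not alike in size. The share of genes with a log2 ratio beyond 1 in either direction was 50.01% in the DMSO pair and 46.3% in the WMS-200 pair, and lay between 38.3% and 42.7% in the 4 pairs whose Treg library carries number 2. The Treg libraries of number 3 are those of the 2 pairs with the larger shares, and the treatment and the number cannot be told apart there.

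**Figure D2:**
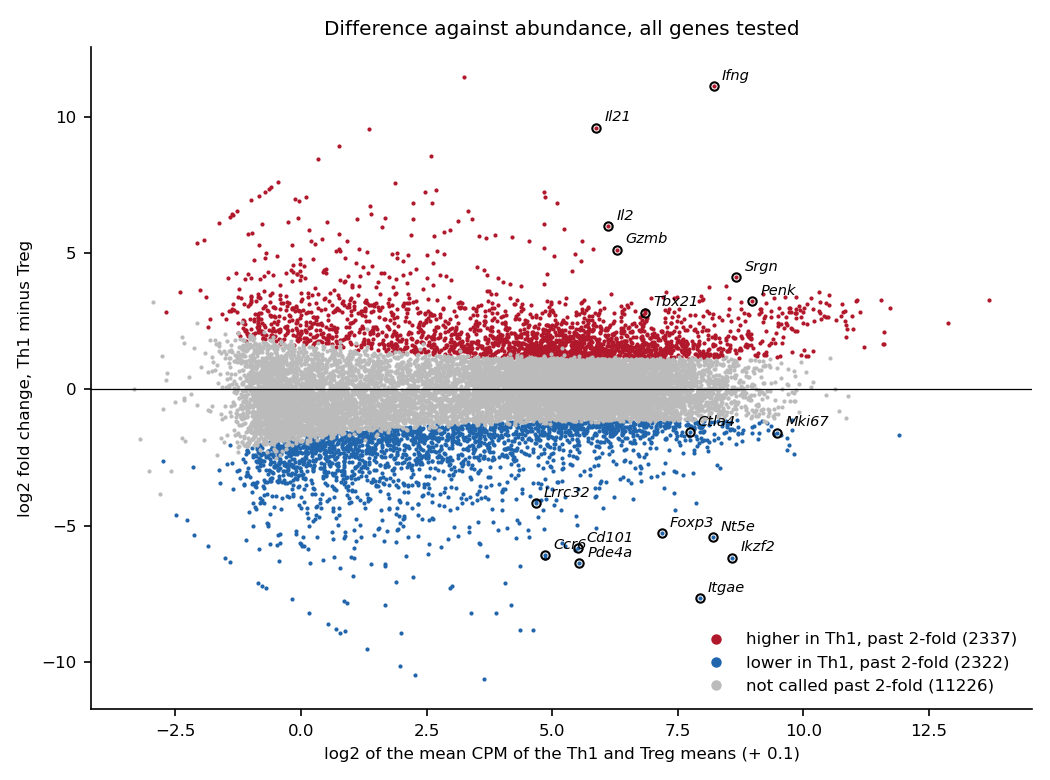
Log2 fold change of Th1 over Treg (vertical axis) against the log2 of the mean CPM of both cell types (horizontal axis), 1 point a gene, with genes past the 2-fold test in red (2337 higher in Th1) and blue (2322 lower in Th1). Ifng at 11.13 lies far up and Itgae at −7.65 far down among abundant genes, and values of genes with almost no counts on one side depend on the model's prior count.

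Ribosomal protein genes took up much more of the Th1 than of the Treg libraries. Their share of all counts was 11.6 to 12.7% (median 12.1) in Th1 libraries, against 1.66 to 2.87% (median 2.25) in Treg libraries, with no overlap (exact permutation test, two-sided p = 0.00216, the smallest that 6 against 6 allows; 0.00256 adjusted over 13 shares and sums). Of the 81 tested, 78 were higher in Th1, all 78 past 2-fold, and 1 was lower, with a median log2 fold change of 2.80. Many of these genes have processed copies that can share their reads, so single members are uncertain. Transcripts encoded by the mitochondrial genome went the other way in their share, with 0.346 to 0.664% (median 0.455) in Th1 libraries and 0.934 to 1.498% (median 1.03) in Treg libraries (exact permutation test, p = 0.00216). By gene they were mixed, 7 higher and 9 lower in Th1 of 25 tested. The factors by which TMM adjusted the library totals were 0.922 to 0.946 in Th1 libraries and 1.14 to 1.25 in Treg libraries. They were 0.907 to 0.996 in Th17 and 0.934 to 0.965 in CD8 libraries, for which the shares are not given here. The fold change also moved with gene length. Among the 11616 genes with a mean log2 CPM of at least 1 its rank correlation with length was −0.298, across genes of the same 12 libraries. The median log2 fold change was 0.52 in the shortest of 3 equal classes, 0.02 in the middle class and −0.28 in the longest. Whether composition, length or the state of the RNA plays a part in the results below was not tested beyond the alternatives with length offsets and with other library sizes.

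**Figure D3:**
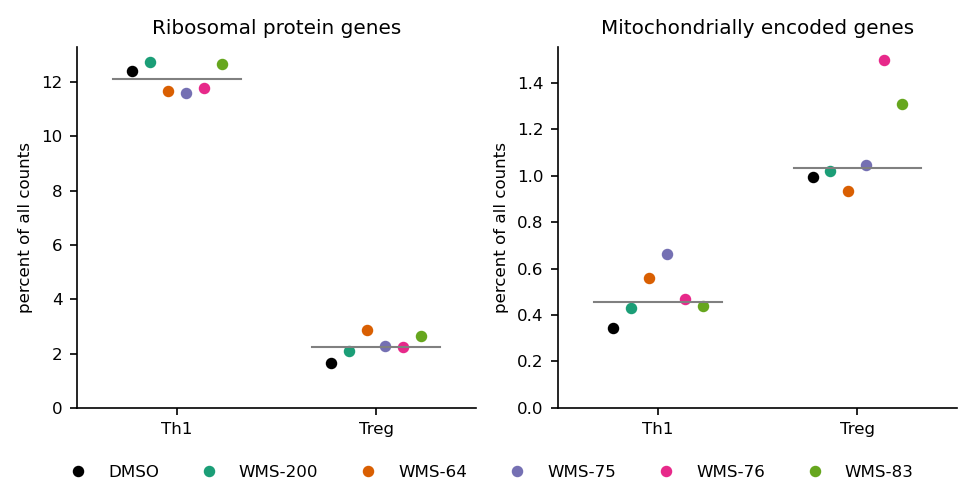
Percent of all counts in ribosomal protein genes (left panel) and in mitochondrially encoded genes (right panel), 1 point for each Th1 (left) and Treg (right) library, coloured by treatment, with the median as a grey bar. The cell types do not overlap in either share.

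Effector cytokines were mostly higher in Th1. Of the 17 tested, 12 were higher, 8 of them past 2-fold, 2 were lower and 3 did not pass, with a median log2 fold change of 1.18. Without the Treg libraries of number 3, 10 were higher, 7 of them past 2-fold, 3 were lower and 4 did not pass. Per length Ifng was the most abundant in Th1 of the cytokines of this list described here, with a mean of 457 RPKM, followed by Il2 with 119 and lymphotoxin alpha (Lta) with 82.0. Il21, a cytokine that acts on B and cytotoxic T cells, had 107 to 126 CPM (median 116) in Th1 libraries, against 0 to 0.498 CPM (median 0.0533) in Treg libraries. The ranges lie far apart (log2 fold change 9.60 ± 0.23), and without the Treg library with WMS-200, the highest of that group, the value was 10.61. Il3, a growth factor of blood progenitors, had 1304 counts in the 6 Th1 libraries and 3 in the 6 Treg libraries. Relative to the library totals after TMM adjustment this is a ratio of 494 (exact 95% interval 169 to 2401, counting error only). Il22, which acts on epithelia, had 3.06 to 11.4 CPM (median 3.96) in Th1 libraries, against 0 to 0.272 CPM (median 0) in Treg libraries, with all 6 of its Treg counts in the WMS-200 library (log2 fold change 6.44 ± 0.49). Without that library no Treg count is left and the fitted value of 9.53 depends on the prior count. Il17a, the signature cytokine of Th17 cells, was also higher in Th1, with 9.98 to 23.7 CPM (median 11.8) in Th1 libraries, against 0.0460 to 0.959 CPM (median 0.393) in Treg libraries (log2 fold change 4.95 ± 0.35). The type 2 cytokine Il13 (2.48 ± 0.30) and Lif, a cytokine of the interleukin 6 family (1.18 ± 0.10), were higher with no overlap. Not all inflammatory cytokines went this way. Tnf had 46.6 to 54.2 CPM (median 52.3) in Th1 libraries, against 38.5 to 95.03 CPM (median 76.2) in Treg libraries, which overlap, and was lower in Th1 by the test (log2 fold change −0.45 ± 0.15, adjusted p = 0.00884). Lymphotoxin beta (Ltb) was lower without overlap (−0.78 ± 0.08). Lta had 96.7 to 124 CPM (median 117) in Th1 libraries, against 63.4 to 159 CPM (median 137) in Treg libraries and Csf2, which encodes GM-CSF, had 11.5 to 16.8 CPM (median 15.6) in Th1 libraries, against 4.39 to 16.6 CPM (median 13.2) in Treg libraries. Both ranges overlap, and neither gene passed (log2 fold change −0.12 ± 0.15, adjusted p = 0.46 for Lta, and 0.32, adjusted p = 0.19 for Csf2). Lta passed as lower in Th1 without the Treg DMSO library, its lowest Treg value (−0.28), and with offsets for gene length (−0.41). For Tnf, Lta and Csf2 the Treg libraries of number 3 were the lowest of that group. Without them Lta passed as lower in Th1 (−0.38, adjusted p = 1.63e-05). Tnf was then at −0.71, and Csf2 at −0.02 (adjusted p = 0.896).

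Most transcription factors of the Th1 program were higher in Th1. Of 13 tested, 9 were higher, 8 of them past 2-fold, 3 were lower and 1 did not pass (median 1.38). Tbx21 had 183 to 220.3 CPM (median 202) in Th1 libraries, against 24.6 to 32.3 CPM (median 28.8) in Treg libraries (log2 fold change 2.81 ± 0.07). All 6 Treg libraries thus held Tbx21 as well, and the fitted fold was 7.03. Its partner Hlx, a homeobox factor, had 4.98 to 9.41 CPM (median 6.57) in Th1 libraries, against 0.272 to 0.987 CPM (median 0.563) in Treg libraries (log2 fold change 3.51 ± 0.32), and Twist1, a basic helix-loop-helix factor induced by interleukin 12 in Th1 cells, had 13.2 to 16.9 CPM (median 15.3) in Th1 libraries, against 0 to 0.586 CPM (median 0.263) in Treg libraries (log2 fold change 5.83 ± 0.34). Prdm1, which encodes BLIMP1 (2.79 ± 0.17), the inhibitor Id2 (2.09 ± 0.09), the related T-box factor Eomes (1.40 ± 0.17, and 1.78 without the Treg libraries of number 3), Bhlhe40, a factor for cytokine production in helper cells (1.26 ± 0.08), and the zinc finger factor Zeb2 (1.38 ± 0.08, and 2.05 with offsets for gene length) were higher with no overlap. Stat4, which carries the interleukin 12 signal, was higher by less than 2-fold (0.94 ± 0.11). Runx3, which works with T-bet at the Ifng gene, had 161 to 193 CPM (median 179) in Th1 libraries, against 134 to 196 CPM (median 169) in Treg libraries and did not pass (log2 fold change 0.09 ± 0.07, adjusted p = 0.241). Lower in Th1 were Runx1 (−0.81 ± 0.07) and the interferon signalling factor Irf1 (−0.71 ± 0.08), and their ranges did not overlap.

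Receptors for the cytokines that shape Th1 cells split by ligand. Both chains of the interleukin 12 receptor were higher in Th1. Il12rb2, the chain that marks Th1 cells, had 211 to 275 CPM (median 261) in Th1 libraries, against 39.3 to 53.5 CPM (median 46.3) in Treg libraries (log2 fold change 2.46 ± 0.10), and Il12rb1 differed by 2.10 ± 0.06. Both chains of the interleukin 18 receptor were lower. Il18r1 had 71.1 to 83.6 CPM (median 73.7) in Th1 libraries, against 461.8 to 655 CPM (median 583) in Treg libraries (log2 fold change −2.90 ± 0.07), and Il18rap differed by −2.38 ± 0.06. The interferon gamma receptor chains Ifngr1 (−1.95 ± 0.09) and Ifngr2 (−1.48 ± 0.09) were lower too. None of these 6 genes overlapped between the groups. In all, of 8 receptors tested 3 were higher, 2 past 2-fold, and 5 were lower, 4 past 2-fold, with a median of −0.93.

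Surface molecules, chemokines and granule proteins were high in Th1 with a few marked exceptions. Of 12 surface and homing genes tested, 7 were higher, all past 2-fold, and 3 were lower (median 2.10). Ly6c2 had 5.02 to 8.09 CPM (median 5.43) in Th1 libraries, against 0 to 0.183 CPM (median 0.0775) in Treg libraries (log2 fold change 5.94 ± 0.25), where reads shared with close relatives in its family make the level uncertain. Its neighbour in the family, Ly6c1, was higher by 4.26 ± 0.40, and by 5.39 without the Treg libraries of number 3. Slamf7 (4.21 ± 0.09) and Slamf1 (2.16 ± 0.09), receptors of activated lymphocytes, Havcr2, the inhibitory receptor TIM-3 (2.09 ± 0.22), and Cd40lg, the CD40 ligand of helper cells (2.12 ± 0.14), were higher as well. Cxcr3, usually taken as a Th1 homing receptor, was lower in Th1, with 14.9 to 18.2 CPM (median 16.6) in Th1 libraries, against 26.2 to 36.3 CPM (median 28.8) in Treg libraries and no overlap (log2 fold change −0.84 ± 0.09). Among 9 chemokines tested, 7 were higher in Th1, 5 past 2-fold, and 1 was lower (median 2.73). The inflammatory chemokines Ccl3, Ccl4 and Ccl5 were higher, Ccl3 by 4.34 ± 0.21, Ccl4 by 2.83 ± 0.16 and Ccl5 by 2.73 ± 0.18, as were Ccl9 (6.55 ± 0.31, or 7.57 without the Treg library with WMS-64) and Ccl22 (3.00 ± 0.27). The exception was Ccl20, the ligand of CCR6, with 0.699 to 2.84 CPM (median 1.61) in Th1 libraries, against 5.25 to 28.8 CPM (median 23.0) in Treg libraries (log2 fold change −3.24 ± 0.40). Its Treg libraries of number 3 were low, at 5.39 CPM with DMSO and 5.25 with WMS-200, and without both the difference was −3.81. Of 12 granule genes tested, 10 were higher, 8 past 2-fold, and 2 were lower (median 3.13). Gzma, which encodes granzyme A, was scarce, with 88 counts in the 6 Th1 libraries and 1 in the 6 Treg libraries. On TMM-adjusted totals this is a ratio of 100.1 (exact 95% interval 17.5 to 3998, counting error only). The Th1 library with WMS-83 had 0 CPM and the other Th1 libraries 0.283 to 1.39, so the ranges of Th1 and Treg overlap. Gzmb, which encodes granzyme B, had 141 to 166 CPM (median 153) in Th1 libraries, against 2.43 to 5.61 CPM (median 4.66) in Treg libraries (log2 fold change 5.12 ± 0.19). Serglycin (Srgn), the granule proteoglycan, had 714 to 788 CPM (median 782) in Th1 libraries, against 37.9 to 49.3 CPM (median 43.6) in Treg libraries (log2 fold change 4.12 ± 0.08). Perforin (Prf1) was scarce in both but higher in Th1 (3.89 ± 0.23, and 4.51 without the Treg WMS-200 library), and Serpinb9, an inhibitor of granzyme B, was higher by 3.35 ± 0.10. Ctsw, which encodes cathepsin W, turned the other way, with 12.8 to 18.7 CPM (median 15.2) in Th1 libraries, against 236 to 387 CPM (median 348) in Treg libraries (log2 fold change −4.43 ± 0.12).

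Targets of interferon gamma were mixed. Of 23 tested, 6 were higher in Th1, 3 past 2-fold, and 13 were lower, 4 past 2-fold, with a median of −0.20. The GTPase gene Gbp2 had 648 to 784 CPM (median 709) in Th1 libraries, against 98.6 to 176 CPM (median 143) in Treg libraries (log2 fold change 2.35 ± 0.09) and the chemokine Cxcl10 had 11.0 to 13.4 CPM (median 11.96) in Th1 libraries, against 0.0529 to 0.503 CPM (median 0.205) in Treg libraries (log2 fold change 5.62 ± 0.28), both without overlap. The antigen presentation genes B2m (1.24 ± 0.08) and Psmb8 (0.88 ± 0.06) were higher as well. The GTPases past 2-fold in the other direction were Iigp1, with 38.2 to 43.8 CPM (median 39.7) in Th1 libraries, against 116 to 218 CPM (median 147) in Treg libraries (log2 fold change −1.96 ± 0.13), Gbp7 (−1.62 ± 0.15), Gbp6 (−1.51 ± 0.11) and Irgm2 (−1.39 ± 0.10). These families hold close paralogs, so the split of reads among members is uncertain. Several members were high in the Treg libraries of number 3. Gbp9 had 68.2 to 86.0 CPM (median 72.8) in Th1, against 184 and 155 CPM in the Treg libraries with DMSO and WMS-200 and 65.5 to 87.6 CPM in the other 4. Gbp4 had 248.7 to 291 CPM (median 267) in Th1, against 466 and 379 CPM in those 2 Treg libraries and 193 to 226 CPM in the other 4. In both genes the 2 libraries of number 3 lay above all other Treg libraries and above all Th1 libraries. Without them 7 of the 23 were higher in Th1 and 10 lower, with 3 and 4 past 2-fold as before. Gbp4 then passed as higher in Th1 (0.37, adjusted p = 2.27e-04, against 0.01 with all libraries) and Gbp9 no longer passed (0.01, adjusted p = 0.945, against −0.46), nor did Irgm1, Tap1 and Tgtp1, which had passed as lower. Iigp1 was at −1.68, Gbp7 at −1.24, Gbp6 at −1.27 and Irgm2 at −1.15 without these libraries.

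Transcription factors of the Treg program were mostly lower in Th1, that is, higher in Treg. Of 18 tested, 13 were lower, 8 past 2-fold, 4 were higher, 1 past 2-fold, and 1 did not pass (median −0.75). Ikzf2, which encodes Helios, had 7.87 to 13.3 CPM (median 9.71) in Th1 libraries, against 540.3 to 1137 CPM (median 591) in Treg libraries (log2 fold change −6.17 ± 0.23). The high Treg values are those of number 3, 1137 CPM with DMSO and 1103 with WMS-200, and without them the difference was −5.79. Eos (Ikzf4), a partner of FOXP3, had 32.7 to 39.5 CPM (median 38.6) in Th1 libraries, against 281 to 328 CPM (median 304) in Treg libraries (log2 fold change −3.01 ± 0.08). Gata3, also the Th2 lineage factor, was lower in Th1 (−1.91 ± 0.08), as were Myb (−2.24 ± 0.09) and the NF-kappa B subunit Rel (−1.22 ± 0.07). Maf (−3.67 ± 0.15) and Rora (−3.43 ± 0.08), known from Th17 cells as well, were lower by more. Satb1, a chromatin organizer that FOXP3 represses in Treg cells, was higher in Th1, with 1067 to 1200.3 CPM (median 1113) in Th1 libraries, against 134 to 264 CPM (median 151) in Treg libraries (log2 fold change 2.65 ± 0.13, and 3.297 with offsets for gene length). The naive T cell factor Lef1 was higher by 0.95 ± 0.06, while its relative Tcf7 had 492 to 556 CPM (median 547) in Th1 libraries, against 461.6 to 701 CPM (median 556) in Treg libraries and did not pass (log2 fold change −0.07 ± 0.08, adjusted p = 0.441).

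Receptors often used to recognise Treg cells did not lean to one side. Of 18 tested, 8 were higher in Th1, 4 past 2-fold, and 7 were lower, 4 past 2-fold (median 0.15). Itgae, the CD103 integrin chain that TGF-beta induces, had 1.68 to 3.11 CPM (median 2.27) in Th1 libraries, against 379.7 to 687 CPM (median 407) in Treg libraries, with Treg libraries of number 3 above the other 4 (log2 fold change −7.65 ± 0.17, and −7.45 without them). Ctla4, an inhibitory receptor by which Treg cells act, had 92.2 to 118 CPM (median 111) in Th1 libraries, against 243 to 369.6 CPM (median 343) in Treg libraries (log2 fold change −1.57 ± 0.10). The TNF receptor Tnfrsf1b (−1.79 ± 0.08) and the chemokine receptor Ccr8 (−1.30 ± 0.10) were lower in Th1 as well. Il2ra, the CD25 chain by which Treg cells are often sorted, had 1223 to 1302 CPM (median 1272) in Th1 libraries, against 564 to 1376 CPM (median 1160.5) in Treg libraries. The ranges overlap and the difference did not pass (log2 fold change 0.27 ± 0.12, adjusted p = 0.053), though it passed as higher in Th1 in 12 of the 22 alternatives. Its Treg libraries of number 3 were the low ones, at 564 CPM with DMSO and 879 with WMS-200, against 1111 to 1376 in the other 4, and without both the difference was 0.03 (adjusted p = 0.655). Il1rl1, the interleukin 33 receptor that tissue Treg cells carry, had 8.96 to 11.8 CPM (median 10.1) in Th1 libraries, against 0.874 to 2.27 CPM (median 1.43) in Treg libraries and was higher in Th1 (log2 fold change 2.81 ± 0.18), as was the receptor Gpr83 (1.74 ± 0.24). Tnfrsf18 (GITR, 0.40 ± 0.09), Tnfrsf4 (OX40, 0.75 ± 0.08), Icos (1.67 ± 0.06) and Lag3 (2.27 ± 0.09) were higher in Th1, Tnfrsf18 not past the test with offsets for gene length (0.15, adjusted p = 0.141). PD-1 (Pdcd1) had 111 to 134 CPM (median 128) in Th1 libraries, against 91.4 to 158 CPM (median 123) in Treg libraries and did not pass (log2 fold change 0.03 ± 0.08, adjusted p = 0.777).

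Among 13 suppressive effectors tested, 7 were lower in Th1, 5 past 2-fold, and 4 were higher, 3 past 2-fold (median −0.71). CD39 (Entpd1), which works before CD73, had 0.508 to 1.13 CPM (median 0.672) in Th1 libraries, against 12.2 to 21.9 CPM (median 15.5) in Treg libraries (log2 fold change −4.34 ± 0.21). GARP (Lrrc32) and the integrin chain Itgb8, which hold and activate latent TGF-beta, differed by −4.18 ± 0.18 and −3.39 ± 0.17. Lrrc32 had 2.15 to 2.92 CPM (median 2.56) in Th1 libraries, against 20.6 to 62.2 CPM (median 58.0) in Treg libraries, with no overlap, and its 2 Treg libraries of number 3 were the lowest of that group (−4.47 without them). Tgfb1 itself was lower by less than 2-fold (−0.71 ± 0.06). Ebi3, a subunit of interleukin 35 (−1.16 ± 0.14), and the fibrinogen-like protein Fgl2 (−1.71 ± 0.27) were lower as well. Tgfb2 was higher in Th1, with 5.30 to 10.1 CPM (median 7.47) in Th1 libraries, against 0.0457 to 0.498 CPM (median 0.307) in Treg libraries (log2 fold change 4.70 ± 0.27). Penk, which encodes the enkephalin precursor, had 778 to 992 CPM (median 939.7) in Th1 libraries, against 67.1 to 113 CPM (median 98.0) in Treg libraries (log2 fold change 3.25 ± 0.17), again without overlap. Galectin 1 (Lgals1) was higher as well (1.73 ± 0.14). In the adenosine list as a whole, 5 of 11 tested were higher in Th1 and 3 lower (median 0.36, and 0.10 with 4 lower without the Treg libraries of number 3). Beside Nt5e and Entpd1, the ATP-gated channel P2rx4 was lower (−1.06 ± 0.10). The adenosine receptor Adora2a had 167 to 195 CPM (median 187) in Th1 libraries, against 29.5 to 41.0 CPM (median 37.7) in Treg libraries (log2 fold change 2.35 ± 0.08) and adenosine kinase (Adk) differed by 1.90 ± 0.11. The CD39 and CD73 transcripts were thus higher in Treg libraries, and the receptor transcript Adora2a in Th1 libraries.

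TGF-beta signalling had no member past 2-fold in the direction of Th1. Of 16 tested, 12 were lower in Th1, 6 past 2-fold, and 4 were higher (median −0.89). The receptor Tgfbr1 had 22.2 to 29.2 CPM (median 27.7) in Th1 libraries, against 189 to 323 CPM (median 239.9) in Treg libraries (log2 fold change −3.18 ± 0.09). The inhibitors of the pathway in the list were lower in Th1, with differences of −3.45 ± 0.08 for Ldlrad4, −3.40 ± 0.59 for Smad6 (−4.09 without the Th1 DMSO library), −1.77 ± 0.06 for Skil, −1.75 ± 0.07 for Smad7 and −1.63 ± 0.08 for Tgif1. Smad6 was near the floor, with 0 to 0.248 CPM in Th1 libraries and 0.476 to 1.93 CPM in Treg libraries. Skil had 138 to 149 CPM (median 140.3) in Th1 libraries, against 466 to 510.3 CPM (median 484) in Treg libraries. Smad3, which carries the signal, was slightly higher in Th1 with overlapping ranges (0.30 ± 0.08, adjusted p = 0.00152). In interleukin 2 receptor signalling 5 of 13 tested were higher in Th1, none past 2-fold, and 6 were lower, 1 past 2-fold (median −0.01, and 0.05 with offsets for gene length). The feedback inhibitor Socs2 had 24.4 to 28.1 CPM (median 25.9) in Th1 libraries, against 86.4 to 253 CPM (median 229.5) in Treg libraries (log2 fold change −2.81 ± 0.21), with Treg number 3 libraries again the lowest, at 86.4 and 101 CPM (−3.18 without them). Jak3 was lower in Th1 (−0.98 ± 0.13), while the receptor chain Il2rg (0.78 ± 0.05) and the kinase Pim1 (0.92 ± 0.06) were higher.

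Genes of naive cells and lymphoid homing were split. Of 13 tested, 4 were higher in Th1 and 7 lower (median −0.23), and 5 and 6 without the Treg libraries of number 3. The lymph node homing receptor Ccr7 was higher in Th1 (0.64 ± 0.07). Klf2, a factor of resting T cells, had 4.90 to 5.85 CPM (median 5.24) in Th1 libraries, against 42.9 to 62.4 CPM (median 51.9) in Treg libraries, with no overlap (log2 fold change −3.301 ± 0.12). Cxcr4 (−3.96 ± 0.12), the interleukin 7 receptor Il7r (−1.35 ± 0.07) and the gut homing integrin chain Itgb7 (−1.36 ± 0.07) were lower in Th1, and the integrin chain Itgb1 was higher (1.83 ± 0.09).

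Components that all T cells share leaned to Th1 by small amounts. Of 18 tested, 15 were higher and none was lower, 3 of them past 2-fold (median 0.68). The kinase Lck had 509 to 559.9 CPM (median 539) in Th1 libraries, against 471 to 592 CPM (median 523) in Treg libraries and Cd3e had 169.5 to 198 CPM (median 194) in Th1 libraries, against 167 to 207 CPM (median 183) in Treg libraries. Both overlap throughout and neither passed (0.02 and 0.03 on the log2 scale, adjusted p = 0.764 and 0.641). Cd4 was slightly higher in Th1 without overlap (0.26 ± 0.06). The members past 2-fold were the costimulatory receptor Cd28 (1.97 ± 0.07), Cd3d (1.501 ± 0.07) and Cd5 (1.26 ± 0.06). The pan-leukocyte phosphatase Ptprc (CD45) overlapped and did not pass (0.01 ± 0.08), but was higher with offsets for gene length (0.63). Factors induced by the T cell receptor had 9 of 18 tested higher, 4 past 2-fold, and 7 lower, none past 2-fold (median 0.28). Those past 2-fold were Batf, with 87.4 to 101 CPM (median 91.8) in Th1 libraries, against 11.4 to 17.7 CPM (median 14.0) in Treg libraries (log2 fold change 2.67 ± 0.09), Irf4 (1.71 ± 0.08), Jund (1.92 ± 0.12) and Myc (1.39 ± 0.11). The early growth response factor Egr3 was lower in Th1 with overlapping ranges (−0.94 ± 0.11). Inhibitory receptors were divided, with 6 of 13 tested higher and 4 lower (median 0.03, and −0.15 with offsets for gene length). Beside Cd5, Havcr2 and Lag3, given elsewhere, Cd200 was past 2-fold higher (2.74 ± 0.09). Beside Ctla4, Lair1 (−2.30 ± 0.38) and Cd96 (−1.29 ± 0.07) were past 2-fold lower. Lair1 was near the floor, with 0.248 to 0.392 CPM in Th1 libraries and 0.453 to 2.52 CPM in Treg libraries.

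Glycolysis was the metabolic list with the clearest lean. Of 18 tested, 16 were higher in Th1, 15 past 2-fold, 1 was lower and 1 did not pass (median 2.19). The glucose transporter Slc2a1 had 131 to 163 CPM (median 151) in Th1 libraries, against 18.0 to 38.6 CPM (median 33.0) in Treg libraries (log2 fold change 2.26 ± 0.11). Hexokinase 2 (Hk2), which traps glucose in the cell, had 208 to 250.03 CPM (median 225) in Th1 libraries, against 16.5 to 26.8 CPM (median 23.9) in Treg libraries (log2 fold change 3.34 ± 0.09). Lactate dehydrogenase A (Ldha), which closes the aerobic route, had 1452 to 1715 CPM (median 1646) in Th1 libraries, against 167 to 289 CPM (median 231) in Treg libraries (log2 fold change 2.79 ± 0.10). Tpi1 (3.35 ± 0.10), Pgk1 (3.33 ± 0.12), enolase 1 (Eno1, 3.13 ± 0.11), the pyruvate kinase Pkm (3.11 ± 0.09) and aldolase A (Aldoa, 2.96 ± 0.08) were higher too, and none of these 8 genes overlapped. Several of them have processed copies in the genome that can share reads. The muscle form of phosphofructokinase, Pfkm, was the lower one (−0.72 ± 0.09). Fatty acid oxidation had 12 of 17 tested higher but only 1 past 2-fold, Etfa (1.25 ± 0.08), which passes electrons from acyl-CoA dehydrogenases to the respiratory chain (median 0.59). Its gatekeeper Cpt1a, which brings fatty acids into mitochondria, had 30.4 to 39.3 CPM (median 34.4) in Th1 libraries, against 79.7 to 94.9 CPM (median 87.5) in Treg libraries and was the 1 member lower past 2-fold (log2 fold change −1.31 ± 0.07). Cell cycle genes had 10 of 18 tested higher, 2 past 2-fold, and 4 lower, 1 past 2-fold (median 0.54, and 0.34 with 6 lower without the Treg libraries of number 3). The proliferation marker Mki67 had 309 to 383 CPM (median 371) in Th1 libraries, against 768 to 1360.3 CPM (median 1111) in Treg libraries (log2 fold change −1.59 ± 0.11, and −1.78 without the Treg libraries of number 3), while the replication helicase subunit Mcm3 had 353 to 385 CPM (median 362) in Th1 libraries, against 74.8 to 162 CPM (median 115) in Treg libraries (log2 fold change 1.64 ± 0.10), and Mcm2 differed by 1.19 ± 0.10. Of 8 DNA methylation genes, 5 were lower in Th1 and 2 higher (median −0.63). All 3 past 2-fold were the TET enzymes, which oxidise methylcytosine and are needed to keep the Foxp3 locus demethylated in Treg cells. Tet1 had 2.60 to 4.48 CPM (median 3.32) in Th1 libraries, against 12.4 to 20.4 CPM (median 15.0) in Treg libraries (log2 fold change −2.19 ± 0.19), and Tet2 and Tet3 differed by −1.78 ± 0.13 and −1.15 ± 0.08. Both are long transcripts, and with offsets for gene length they differed by −1.20 and −0.58.

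**Figure D4:**
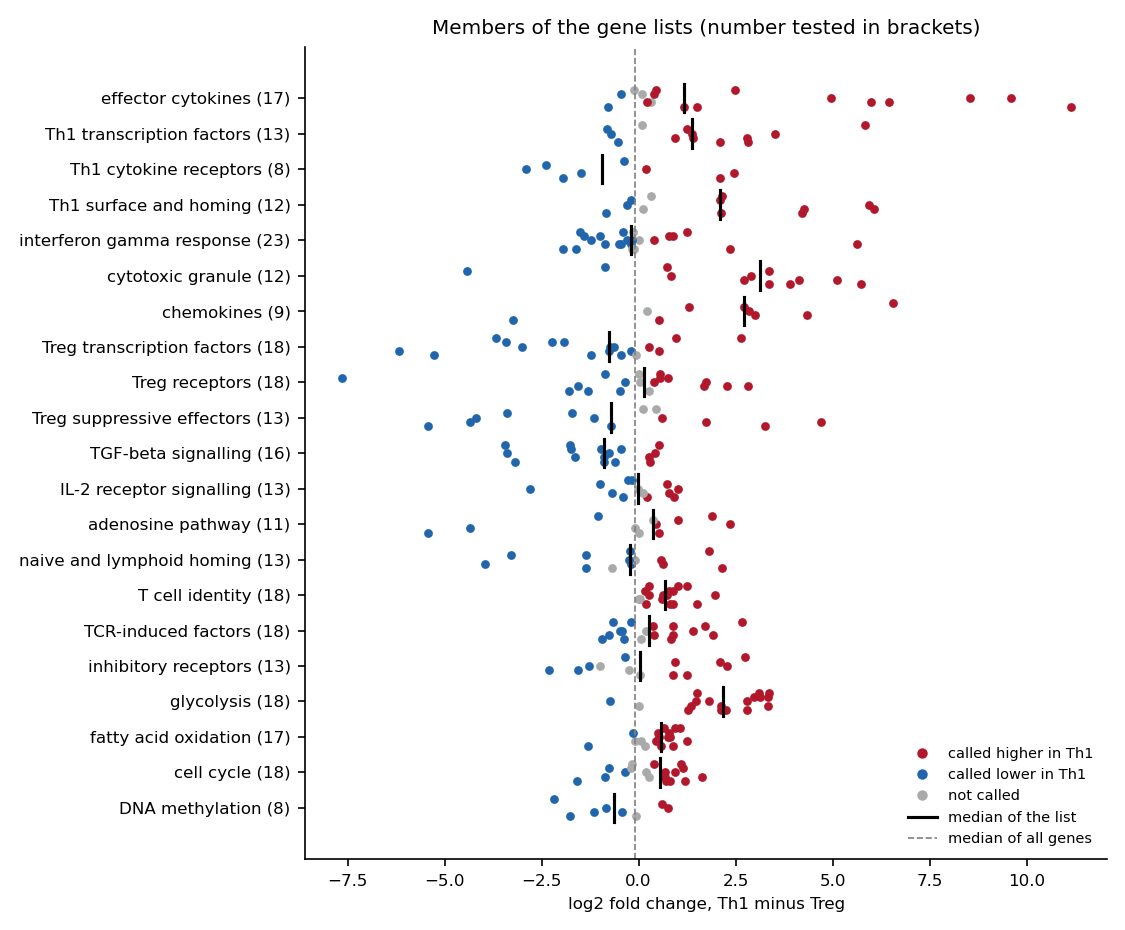
Log2 fold change of Th1 over Treg for the tested members of 21 gene lists, 1 point a gene, red where called higher in Th1, blue where called lower and grey where not called, with the median of each list as a black bar and that of all genes (−0.09) as a dashed line. Glycolysis, cytotoxic granule and chemokine genes lie mostly to the right, TGF-beta signalling genes mostly to the left, and Treg receptors on both sides.

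Outside the lists, the 12 largest rises and 12 largest falls were taken among protein coding genes past 2-fold whose libraries do not overlap and whose log2 CPM averages 3 or more over the 12 libraries. All 24 were therefore chosen for their difference, and their values are a description. The rises in Th1 included a pair of retinoid genes, Crabp2, a carrier of retinoic acid in the cell, with 50.8 to 64.2 CPM (median 54.2) in Th1, against 1.39 to 1.64 CPM (median 1.55) in Treg, and Stra6, the receptor of retinol-binding protein, with 78.8 to 111 CPM (median 88.8) in Th1, against 2.43 to 4.57 CPM (median 3.68) in Treg. Largest was Ermn, known as a cytoskeletal protein of oligodendrocytes, with 52.6 to 89.0 CPM (median 72.1) in Th1, against 0.592 to 2.06 CPM (median 1.08) in Treg (5.88 ± 0.19). Inhba, a subunit of activin A, had 84.1 to 109.6 CPM (median 90.8) in Th1, against 0.181 to 4.53 CPM (median 2.53) in Treg. The calcium-binding S100a6 (5.15), the ETS factor Etv5 (4.95), the receptor partner Ramp3 (4.89), the mitochondrial adenylate kinase Ak4 (3.87), the stress factor Atf3 (3.87), the surface antigen Ly6a, also called Sca-1 (3.78), the pseudokinase Prag1 (3.77) and the cytokine Mif (3.75) completed the rises. Reads of Mif and Ly6a can be shared with processed copies or family members. The falls were led by Pde4a, an enzyme that degrades cyclic AMP, with 0.446 to 1.97 CPM (median 1.02) in Th1, against 75.6 to 106 CPM (median 91.0) in Treg (−6.39 ± 0.20). The surface protein Cd101 had 0.844 to 2.19 CPM (median 1.55) in Th1, against 80.6 to 99.2 CPM (median 89.8) in Treg (−5.84 ± 0.12), and Adgrg1, an adhesion receptor also called GPR56, had 0.793 to 2.00 CPM (median 1.38) in Th1, against 59.3 to 91.5 CPM (median 70.8) in Treg. A pair of genes of fatty acid uptake and activation, Slc27a1 (−5.11) and Acsbg1 (−4.37), was lower in Th1. So were Sspo, which encodes SCO-spondin (−5.88), the scavenger receptor Stab1 (−4.97), the Ras activator Rasgrp4 (−4.68), Cd72, best known from B cells (−4.64), and carbonic anhydrase Car2 (−4.45). Matk, a kinase that restrains Src kinases, and the stem cell factor receptor Kit were uneven within Treg. Matk had 1.05 to 1.59 CPM (median 1.25) in Th1, against 155 and 103 CPM in the Treg libraries with DMSO and WMS-200 and 36.0 to 55.0 CPM in the other 4 Treg libraries. Kit had 1.81 to 3.81 CPM (median 3.07) in Th1, against 103 and 155 CPM in those 2 Treg libraries and 27.0 to 30.1 CPM in the other 4. Without the 2 libraries the Kit difference was −3.31, against −4.23 with them.

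The Th17 and CD8 libraries place some of these genes. In the same model 7508 genes (47.3%) differed between Th1 and Th17, 2534 (16%) between Th1 and CD8, 11890 (74.9%) between Treg and Th17, and 12386 (78%) between Treg and CD8. These comparisons share the Th1 or the Treg libraries with the main one and are given side by side. Ifng had 1316 to 1475 CPM (median 1348) in CD8 and 2.23 to 7.38 CPM (median 4.61) in Th17, so Th1 lay below CD8 (−1.21 ± 0.13) and above Th17 (6.88 ± 0.18). Il2 had 88.2 to 192 CPM (median 139) in Th17, and Th1 minus Th17 did not pass (−0.07 ± 0.15, adjusted p = 0.726), while Treg minus Th17 was −6.06 ± 0.20. Nt5e had 329 to 382 CPM (median 363) in Th17 and 19.7 to 26.6 CPM (median 25.6) in CD8, and Treg lay above Th17 by only 0.68 ± 0.08. Foxp3, with 27.8 to 38.0 CPM (median 35.5) in Th17 and 1.59 to 5.32 CPM (median 3.97) in CD8, lay further apart, at 3.04 ± 0.20 for Treg minus Th17. Tgfbr1 had 331 to 407 CPM (median 367) in Th17, and Treg minus Th17 was −0.60 ± 0.08. For the TGF-beta target Skil this difference did not pass (0.10 ± 0.05, adjusted p = 0.102). Helios (Ikzf2) was high in Treg alone of the 4 cell types, with 8.73 to 15.8 CPM (median 13.7) in Th17 and 11.7 to 16.9 CPM (median 14.9) in CD8 (Treg minus Th17 5.80 ± 0.22, Treg minus CD8 5.67 ± 0.22). Tbx21 had 211 to 242 CPM (median 222) in CD8, and Th1 minus CD8 did not pass (−0.16 ± 0.07, adjusted p = 0.123). It had 8.41 to 11.1 CPM (median 9.61) in Th17, below Treg (1.56 ± 0.08 for Treg minus Th17).

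**Figure D5:**
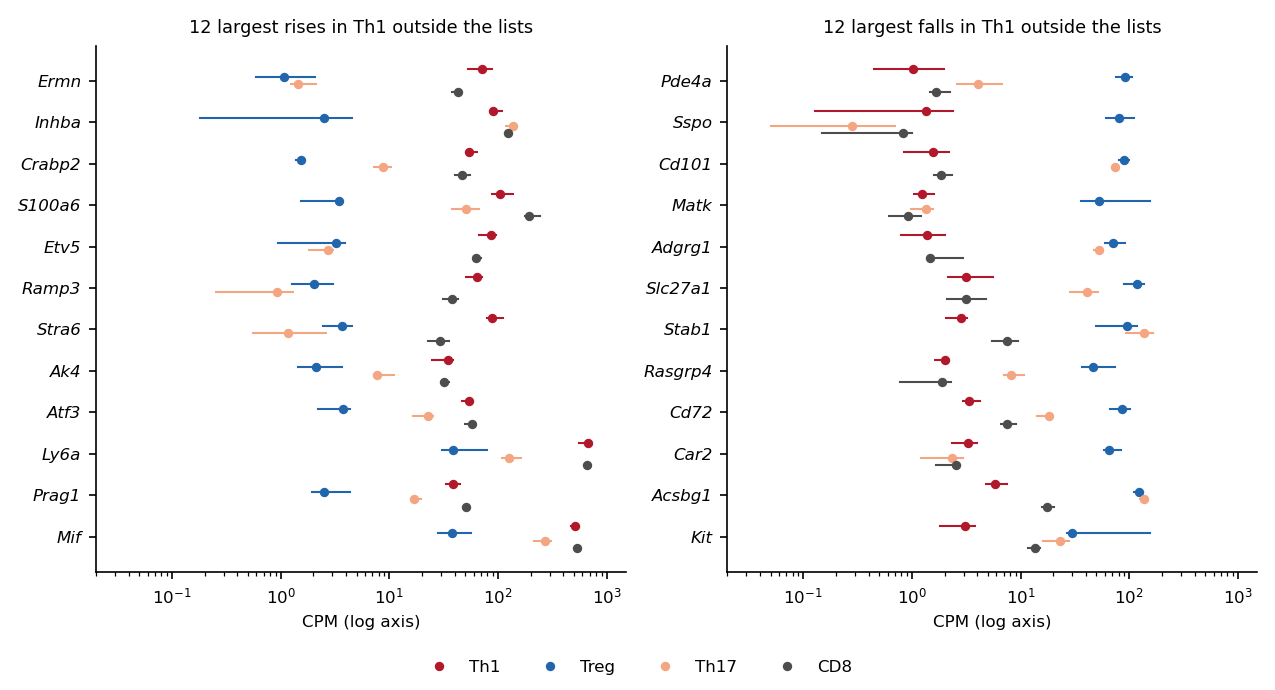
CPM on a log axis of the 12 largest rises (left panel) and falls (right panel) outside the lists, with Th1, Treg, Th17 and CD8 from top to bottom for each gene, points at the median and lines from the lowest to the highest of 6 libraries. Pde4a and Car2 are high in Treg alone, Cd101 and Acsbg1 in Treg and Th17, and Ermn and Stra6 in Th1 and CD8.

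Markers of other cell types moved with the comparison. The summed CPM of 8 Th17 markers was 51.6 to 65.7 in Th1 libraries and 267 to 417 in Treg libraries. Ccr6 had 0.504 to 1.21 CPM (median 0.789) in Th1 libraries, against 41.6 to 71.9 CPM (median 56.1) in Treg libraries (log2 fold change −6.08 ± 0.22), while Il17a and Il22, given above, the interleukin 23 receptor Il23r (4.26 ± 0.33) and Il1r1 (2.48 ± 0.26) were higher in Th1. The sum of 7 Th2 markers was 90.8 to 97.9 CPM in Th1 libraries and 183 to 271 in Treg libraries, with Il4 at a mean of 0.741 CPM in Th1 and 0.687 in Treg. Members went both ways, 2 of the 5 tested being higher and 2 lower in Th1. Gata3 averaged 29.2 CPM in Th1 and 109.6 in Treg and Ccr8 44.4 in Th1 and 111 in Treg, while Il13 averaged 9.27 in Th1 and 1.72 in Treg and Il1rl1 10.3 in Th1 and 1.47 in Treg. For 5 CD8 markers the sum was 78.1 to 89.1 CPM in Th1 libraries and 28.2 to 51.8 in Treg libraries, with Cd8a at a mean of 13.9 CPM in Th1 and 7.27 in Treg. Of the 4 tested 3 were higher in Th1, and 1 was lower, Klrd1, with a mean of 2.16 CPM in Th1 and 7.41 in Treg. The B cell sum was 56.9 to 68.9 CPM in Th1 libraries and 103 to 152 in Treg libraries, most of it Ighm, with Cd79a at a mean of 2.06 CPM in Th1 and 3.63 in Treg. Of 9 B cell markers tested 1 was higher and 5 were lower in Th1, 3 without the Treg libraries of number 3. Myeloid and dendritic sums overlapped, 15.6 to 19.8 CPM in Th1 libraries and 12.2 to 19.1 in Treg libraries (exact permutation test, p = 0.206), and the largest part was Cd68. Its members went both ways, 3 of the 5 tested being higher and 2 lower in Th1. Mpeg1 averaged 0.239 CPM in Th1 and 4.32 in Treg, and Itgam had 2 counts in Th1 libraries and 116 in Treg libraries. NK and gamma delta sums were at most 7.17 CPM in Th1 and 3.41 in Treg, and erythroid sums at most 0.743 CPM in Th1 and 2.06 in Treg. The stromal sum was 19.5 to 23.0 CPM in Th1 and 47.3 to 61.01 in Treg, mainly Pecam1, which T cells also express. Siglech, Hba-a2, Hbb-bs and Hbb-bt had no count in Th1 libraries, and Klra8, Hba-a1, Hba-a2, Hbb-bt and Dcn had none in Treg libraries. The part of these markers in the results was not tested. Fewer cells of a type and less RNA per cell cannot be told apart in such samples.

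The opioid genes themselves were scarce apart from Penk. The KOR gene Oprk1 had 5 counts in all Th1 libraries and 0 in all Treg libraries, where 3 counts in 1 library would correspond to at most 0.160 CPM. Oprm1, the mu receptor gene, had 42 counts in Th1 libraries and 164 in Treg libraries. It passed as lower in Th1 (log2 fold change −1.65 ± 0.68, adjusted p = 0.0307) with overlapping ranges, but not in 10 of the 22 alternatives, among them that without the Treg DMSO library (−1.07, adjusted p = 0.155) and that without both Treg libraries of number 3 (−0.73, adjusted p = 0.361).

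Whether the agonists changed the Th1 to Treg difference was asked by setting the 5 agonist libraries of each cell type against its DMSO library. The difference of these effects, Th1 minus Treg, passed in 270 genes (1.7%), 23 higher (0.145%) and 247 lower (1.55%), while 17.9% of genes had an unadjusted p under 0.05. The 5 protein coding genes of smallest p had 1 pattern, a Treg DMSO library below all 5 Treg agonist libraries. Their agonist minus DMSO effect was −0.76 to −0.06 in Th1 and 0.89 to 2.17 in Treg, on the log2 scale. Siah1b, a ubiquitin ligase gene, had 4.59 to 6.42 CPM with agonists and 8.81 with DMSO in Th1, against 3.85 to 5.97 CPM with agonists and 1.00 with DMSO in Treg (difference −2.83 ± 0.41, adjusted p = 0.0028). C1qbp, which encodes a mitochondrial protein, had 186 to 209.7 CPM with agonists and 209.7 with DMSO in Th1, against 30.5 to 42.2 CPM with agonists and 18.5 with DMSO in Treg (−1.06 ± 0.19, adjusted p = 0.0113). Prpf31, a splicing factor gene (−1.01 ± 0.17), Fam20a (−2.49 ± 0.43) and Lipo3 (−1.45 ± 0.26) differed likewise. With limma, where 4 genes passed in all, Prpf31 was the only one of these 5 to pass, and the adjusted p was 0.0507 for Siah1b and C1qbp, 0.0669 for Fam20a and 0.0662 for Lipo3. Among the Treg agonist libraries the one with WMS-200, which shares number 3 with DMSO, was the lowest for Siah1b, Prpf31, Fam20a and C1qbp and the second highest for Lipo3. Each result rests on 1 DMSO library a cell type, and in Treg the agonists and the number are partly confounded and cannot be told apart. For the markers the difference was −0.21 for Ifng (95% interval −2.82 to 2.39), −1.25 for Il2 (−2.22 to −0.28), −1.64 for Foxp3 (−2.56 to −0.72) and −0.05 for Nt5e (−0.52 to 0.41). None passed after adjustment over all genes (adjusted p = 0.962, 0.154, 0.0611 and 0.941), which does not show that they did not differ. The count of 270 also depended on single agonist libraries. It was 1313 without the Treg library with WMS-200, 131 without that with WMS-64 and 127 without that with WMS-83. Among the Th1 libraries it was 54 without that with WMS-75, 58 without WMS-76, 118 without WMS-83, 115 without WMS-64 and 139 without WMS-200.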

How the data were processed

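The data are whole-number read counts per gene deposited by the authors, in 1 table of 56748 genes and 24 libraries, with gene lengths. Per the submitters' processing notes, fastp, HISAT2 and featureCounts were used. The sources used here state neither tool versions nor the genome build, annotation and strand setting, so reads of overlapping or antisense genes cannot be told apart. Per the labels' protocols, RNA came from column kits and was enriched for poly(A).

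From these counts, 15885 genes passed edgeR's filter (version 4.0.16, minimum count 10, by cell type). TMM scaling and robust quasi-likelihood fits were run in R 4.3.3 over all 24 libraries, with cell type and compound as terms (15 residual degrees of freedom, biological coefficient of variation 0.1331). P-values were adjusted by Benjamini and Hochberg over all genes, with a threshold of 0.05. The test against a 2-fold change used glmTreat. CPM are used for levels, and RPKM, on the gene lengths of the file, for levels between genes. Fold changes rest on a model whose prior count matters for genes near 0.

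Compound is a term because each compound was used once in each cell type. Whether it pairs libraries was checked by the correlation of deviations from the cell type means between Th1 and Treg libraries of 1 compound, which was −0.14 to 0.0106, so the libraries share a compound but do not deviate together. Agonist effects were fitted as cell type with agonist or DMSO (16 residual degrees of freedom). Summed shares were compared by two-sided exact permutation tests over libraries.

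The fits were also run on simulated counts. Among 100 genes changed 2-fold, 76% passed for Th1 against Treg and 39% for the agonist effect. Among 100 genes changed 4-fold, 89% and 64% passed. Of all calls, 4.62% and 2.83% were false. The spread was the same in all cell types there and few genes were changed, so these shares may not hold for the real libraries. Alternatives were RLE scaling, no filter, offsets for gene length (lowess span 0.3), library sizes without ribosomal protein and mitochondrial genes, limma 3.58.1, DESeq2 1.42.0, the 12 libraries alone, no compound term, without DMSO, without the Treg libraries of number 3, and leaving out each library.

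Libraries entered by their labels. The comparison, the 30 gene lists and the tests were chosen with earlier results of these data known. Genes named are the 4 markers, the called list members of largest size and the defining members, and outside the lists the 12 largest rises and falls among protein coding genes past 2-fold, without overlap and with a mean log2 CPM of at least 3, and for the agonist effect the 5 genes of smallest p. Promoter sequences are RefSeq's, GRCm38.p6, and all 4 markers matched by symbol. Intervals and limits from counts cover counting error only. Some genes of the lists are not reported here one by one.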

Additional observations from a re-analysis of the deposited data

Results flagged for a closer look

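Of 346 groups of 6 libraries tested by gene, 23 had a library far from the other 5, by the gap to its nearest neighbour relative to the group's range. Chance flags about 1 in 20 groups.

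In Th1, the DMSO library was high for Il22, at 11.4 CPM against 3.06 to 4.43 in the other 5, and for Hlx, at 9.41 against 4.98 to 6.61, and low for Ikzf4, at 32.7 against 37.9 to 39.5. The WMS-83 library was high for Il13, at 13.8 CPM against 7.11 to 9.12, and low for Penk, at 778 against 913 to 992, and for Pgk1, at 1099.9 against 1244 to 1283. The WMS-200 library was high for Ly6c2, at 8.09 CPM against 5.02 to 5.58, and low for Cd3e, at 170 against 189 to 198. The WMS-64 library was low for Runx1, at 54.0 CPM against 59.5 to 62.5, and high for Mcm3, at 385 against 353 to 364. The WMS-75 library was high for Prf1, at 10.7 CPM against 6.63 to 7.96, and for Zeb2, at 40.7 against 33.3 to 35.7. Tcf7 was low in the WMS-76 library, at 492 CPM against 541 to 556.

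In Treg, the WMS-200 library was high for Prf1, at 1.40 CPM against 0.138 to 0.548 in the other 5, and for Il22, at 0.272 against 0, and low for S100a6, at 1.54 against 2.88 to 3.68. The DMSO library was low for Icos, at 90.9 CPM against 115 to 123, for Ebi3, at 14.6 against 20.2 to 23.5, for Slamf1, at 18.5 against 24.4 to 27.3, and for Atf3, at 2.22 against 3.67 to 4.37. The WMS-64 library was high for Ccl9, at 0.690 CPM against 0 to 0.247. The WMS-75 library was high for Havcr2, at 1.23 CPM against 0.506 to 0.770, and held the only count of Gzma, at 0.0533 CPM. In each of these genes except Tcf7 and Cd3e the difference between Th1 and Treg passed the test with all 12 libraries.

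By the interaction term of edgeR's quasi-likelihood test, the agonist effect passed as different between Th1 and Treg in 270 genes, a count that was 4 with limma and 54 to 1313 as single libraries were left out. The difference, Th1 minus Treg, was −2.83 for Siah1b, −1.01 for Prpf31, −2.49 for Fam20a, −1.06 for C1qbp and −1.45 for Lipo3. Each rests on 1 DMSO library in each cell type, and the part of that library was not tested.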

How the results depend on the processing

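The counts of the Th1 against Treg comparison stayed within 1.5 times those reported in all alternatives, with 11293 to 12891 genes called. Their balance did not. More genes were lower than higher in Th1 as reported, but 5740 were higher and 5553 lower in the 12 libraries alone, and 6143 higher and 6142 lower with offsets for gene length. Past 2-fold, where 2337 were higher and 2322 lower, it was 2308 and 2373 with RLE scaling, 2214 and 2268 with length offsets, 2419 and 2552 with no filter, and 2327 and 2352 with no compound term. Leaving out each library in turn gave 12078 to 12321 calls, 5908 to 6012 higher and 6155 to 6342 lower, and 4339 to 4828 genes past 2-fold, 2237 to 2467 higher and 2102 to 2416 lower. Without the Treg libraries of number 3 it was 11982 calls and 4243 past 2-fold. The compound serves as the replicate block. Without the replicate block 12398 genes passed, 4679 of them past 2-fold, and in the 12 libraries alone with the block 11293 and 4262. The difference in share was 9.73 to 9.97 points for ribosomal protein genes and −0.689 to −0.576 for mitochondrial genes as single libraries were left out.

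The count of genes whose agonist effect differed moved most. It was 66 (10 higher, 56 lower) with RLE scaling, 817 (82 higher, 735 lower) with no filter, 484 (96 higher, 388 lower) with DESeq2 and 4 (1 higher, 3 lower) with limma. Leaving out single libraries gave 54 to 1313, with 3 to 240 higher and 51 to 1073 lower. The cause was not tested. With limma the adjusted p was 0.0507 for Siah1b and C1qbp, 0.0669 for Fam20a and 0.0662 for Lipo3. No pairing of libraries by animal could be tested.

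No called gene named in the text reversed. Lta, Csf2, Runx3, Il2ra, Tnfrsf18, Cd3e, Ptprc and Oprm1 crossed the threshold in at least 1 alternative. Among them were Csf2 with no filter (adjusted p = 0.0406) and Runx3 with offsets for gene length (0.17, adjusted p = 0.0269). Cd3e crossed it without the Treg libraries of number 3 (0.14, adjusted p = 0.0472). Gbp4, Gbp9, Irgm1, Tap1 and Tgtp1 also crossed it without these libraries, as given above. Depth limits the genes near 0, such as Oprk1, Gzma and Il3 in Treg.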
